A study of Mus musculus with 12 samples.

Results

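Lipases and their regulators were followed here as 9 genes, taken by symbol from the tables of all 12 libraries: Pnpla2, Pnpla3, Lipe, Mgll, Abhd5 and G0s2 for intracellular lipolysis, and Lpl, Angptl4 and Lmf1 for the control of lipoprotein lipase. They are 9 of the 18255 genes listed in any library, and all 9 were among the 12993 that entered the tests. The libraries came from 3T3-L1, an established mouse preadipocyte line, in 4 groups of 3: a control line (labelled NC) and a line that overexpresses LIGHT, the cytokine encoded by Tnfsf14, each before and after differentiation into beige adipocytes. Differentiated cells of both lines had been induced with dexamethasone, IBMX, rosiglitazone, tri-iodothyronine, indomethacin and insulin in serum medium, and were then kept on rosiglitazone, tri-iodothyronine and insulin. Undifferentiated cells were grown in the serum medium alone. There is 1 line of each genotype. Whether the LIGHT line is a clone or a pool, what drives its transgene and when the cells were harvested was not given in the sources used here. Stage, medium and time in culture cannot be told apart in this design, nor can LIGHT and the line that carries it.

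Stored triglyceride in a fat cell is broken down stepwise at the lipid droplet. Adipose triglyceride lipase (Pnpla2) takes off the first fatty acid, hormone-sensitive lipase (Lipe) the next and monoacylglycerol lipase (Mgll) the last, while ABHD5 activates adipose triglyceride lipase and G0S2 inhibits it. Lipoprotein lipase (Lpl) acts outside the cell on the triglyceride of circulating lipoproteins, is matured in the endoplasmic reticulum with the help of LMF1 and is inactivated by ANGPTL4. PNPLA3 is a lipid droplet protein related to adipose triglyceride lipase.

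Promoter sequences are shown for 5 members of the lipolysis arm, so that genes whose transcripts rose together on differentiation can be compared base by base. RefSeq's promoter table (build GRCm38.p6) matched 7 of the 9 members, all but Lpl and Angptl4. Each window below is the 250 bases before an annotated transcription start, written 5′ to 3′ on the gene's strand, with capitals marking every match to the motifs searched apart from the GC box. All motifs were read on both strands. They were the direct repeat bound by PPARγ (2 copies of AGGTCA with 1 base between), AGGTCA alone, which a direct repeat also holds, the E-box CACGTG, the core TGACGT of the cAMP response element and CCAAT. The core promoter element TATAAA and the GC box GGGCGG were searched as well. Pnpla2 is at chr7:141454938-141455187 (+ strand), Abhd5 at chr9:122351366-122351615 (+), G0s2 at chr1:193273189-193273438 (−), Lipe, of whose pair of windows the upstream one is printed, at chr7:25395988-25396237 (−), and Pnpla3 at chr15:84167566-84167815 (+).
Pnpla2: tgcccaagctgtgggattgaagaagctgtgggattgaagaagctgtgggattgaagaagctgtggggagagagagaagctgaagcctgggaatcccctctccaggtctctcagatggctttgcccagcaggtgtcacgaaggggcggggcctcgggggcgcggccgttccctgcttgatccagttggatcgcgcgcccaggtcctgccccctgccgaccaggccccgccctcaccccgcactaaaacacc
Abhd5: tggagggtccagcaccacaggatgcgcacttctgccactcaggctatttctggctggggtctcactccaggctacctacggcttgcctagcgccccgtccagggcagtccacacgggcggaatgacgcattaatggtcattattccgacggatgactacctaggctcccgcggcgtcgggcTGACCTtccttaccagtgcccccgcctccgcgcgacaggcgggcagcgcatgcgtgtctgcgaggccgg
G0s2: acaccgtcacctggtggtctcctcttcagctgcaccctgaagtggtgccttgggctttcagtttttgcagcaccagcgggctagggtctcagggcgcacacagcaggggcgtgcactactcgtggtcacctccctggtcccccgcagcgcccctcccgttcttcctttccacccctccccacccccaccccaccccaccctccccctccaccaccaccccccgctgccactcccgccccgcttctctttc
Lipe: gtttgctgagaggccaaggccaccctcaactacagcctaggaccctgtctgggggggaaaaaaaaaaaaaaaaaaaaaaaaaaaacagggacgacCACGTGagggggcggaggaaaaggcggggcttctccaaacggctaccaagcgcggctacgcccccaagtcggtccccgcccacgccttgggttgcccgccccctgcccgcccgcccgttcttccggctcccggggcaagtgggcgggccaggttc
Pnpla3: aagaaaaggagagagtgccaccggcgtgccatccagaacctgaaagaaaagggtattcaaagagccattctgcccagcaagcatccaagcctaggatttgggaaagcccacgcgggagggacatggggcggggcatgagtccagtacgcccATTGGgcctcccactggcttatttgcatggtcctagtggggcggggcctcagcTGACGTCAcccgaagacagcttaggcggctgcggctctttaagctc
Among the 32851 RefSeq windows of this length, CACGTG was in 6.02%, TGACGT in 6.47%, AGGTCA in 14%, CCAAT in 33.8%, TATAAA in 12.4%, GGGCGG in 32.7% and the full direct repeat in 0.0335%. In Pnpla3 the capitals mark TGACGT on each strand, overlapping, 46 to 39 bases before the start, and CCAAT on the opposite strand 99 to 95 bases before it. In Lipe they mark CACGTG, 155 to 150 bases before the start, and in Abhd5 AGGTCA on the opposite strand, 69 to 64 bases before it. The Pnpla2 and G0s2 windows held GGGCGG alone, as did the 1 window of Lmf1. The upstream of the pair of Mgll windows held CACGTG. The downstream of the pair of Lipe windows, not printed, held none of the motifs searched. Which start these cells use was not tested. These are matches of letters: the direct repeat and TATAAA were in none of the members' windows, and binding was not measured.

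Library totals ran from 16334079 to 19686675 expected counts, with 14812 to 15017 genes listed. On the CPM scale (counts scaled to library size by TMM) a floor of 3 counts corresponds to 0.152 to 0.184. The overexpressed gene goes against the labels of 2 libraries. Tnfsf14 had 38, 53 and 58 counts in the undifferentiated LIGHT libraries and 148 and 122 in differentiated LIGHT libraries 2 and 3, but 0 in the library labelled differentiated LIGHT 1. It had at most 1 count in the undifferentiated control libraries and 0 in differentiated control libraries 2 and 3, but 113 in the library labelled differentiated control 1. Results are therefore given with all libraries as labelled and without these 2. The summed level of 8 adipocyte markers was 47.8 to 49.7 CPM in undifferentiated control and 24.5 to 42.2 in undifferentiated LIGHT libraries, and 9077 to 14439 CPM in the differentiated libraries. Of 6 thermogenic markers, which bear on the beige label, Ucp1, Cidea, Dio2 and Prdm16 had at most 2, 6, 2 and 1 counts in any library, while Ppargc1a and Kcnk3 were tested and rose in both lines on differentiation. Their summed level was 5.31 to 9.39 CPM before and 63.6 to 98.1 CPM after it. Among leukocyte markers, Adgre1 and Cd3e were listed in no library and Itgam had at most 1 count, while Cd68 and Cd14 were tested and were lower in undifferentiated LIGHT than control cells (log2 change -1.64 and -0.42). Ptprc went the other way, with 4 to 11 counts in undifferentiated LIGHT and 0 to 2 in undifferentiated control libraries. It did not pass the low-count filter with all 12 libraries. The summed level of the leukocyte markers was 16.1 to 17.1 CPM in undifferentiated control, 11.3 to 12.9 in undifferentiated LIGHT and 6.6 to 8.72 in differentiated libraries. Separate cultures are not stated for replicate libraries, so the p-values reflect only how far these samples spread. In RNA from whole cultures, fewer cells of a type and less RNA per cell cannot be told apart.

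Differentiation was compared first, within each line. All 9 members rose in control cells and all 9 in LIGHT cells. For all 9 the 3 differentiated libraries lay above the 3 undifferentiated ones in each line, as they did for 33.6% of all genes tested in control and 33% in LIGHT cells. The rises ran from 1.65-fold for Lmf1 to 414-fold for G0s2 in control cells and from 1.67-fold to 550-fold, for the same pair of genes, in LIGHT cells. Calls are at an adjusted p under 0.05 in edgeR's quasi-likelihood test with Benjamini-Hochberg adjustment over all genes tested. Among all genes 32.2% rose in control cells and 29.5% in LIGHT cells. The median log2 change of the 9 was 5.10 in control cells and 5.17 in LIGHT cells, beside 0.000 and -0.004 over all genes. Without the 2 libraries all 9 again rose in both lines, where 35.8% and 32.3% of genes did. The members passed the low-count filter, but Pnpla3 passed it through its differentiated libraries alone. Its rise was therefore fixed by the filter, and the counts of 9 and the medians that include it are a description.

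**Figure D1:**
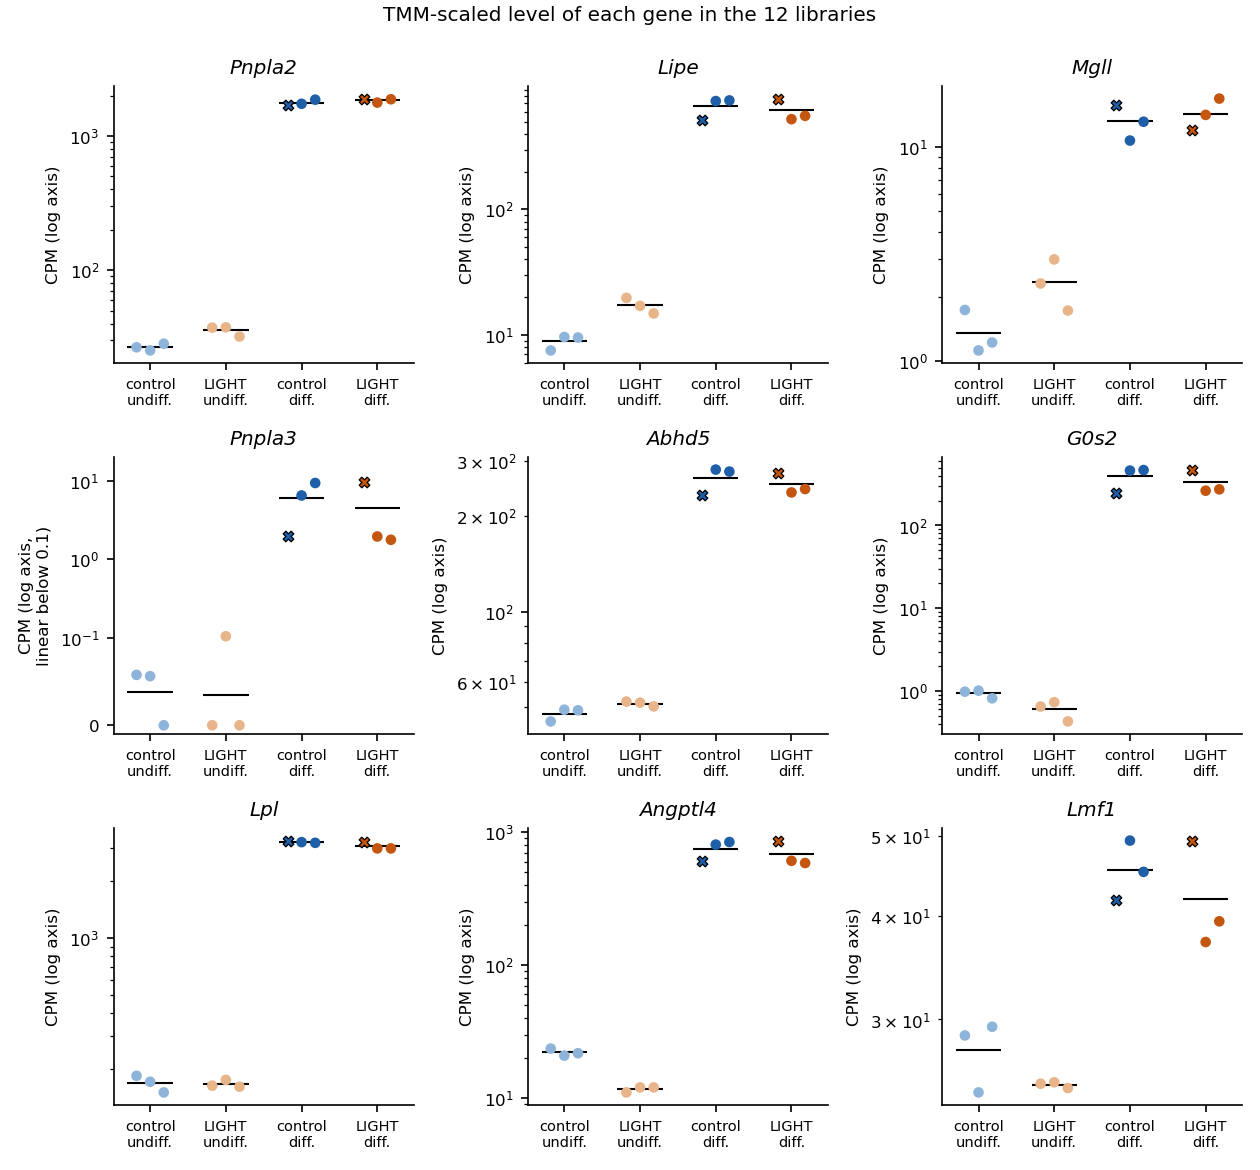
Level of each of the 9 genes in the 12 libraries, in TMM-scaled CPM on a log axis (for Pnpla3 linear below 0.1). Points are libraries, black bars are group means, and crosses are the libraries labelled differentiated control 1 and differentiated LIGHT 1. Differentiated libraries lie above undifferentiated ones for every gene, by the least for Lmf1. In Pnpla3, G0s2, Lipe, Angptl4 and Abhd5 each cross lies apart from the other 2 libraries of its group. In the other genes each cross is also the highest or lowest library of its group.

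Pnpla2, the first lipase of the cascade, stood at 26.7, 25.3 and 28.4 CPM in the undifferentiated control libraries and at 1707, 1739 and 1866 CPM after differentiation. In the LIGHT line it went from 37.4, 37.6 and 32.1 to 1901, 1775 and 1880 CPM. The log2 change was 6.05 (SE 0.10, adjusted p = 8.52e-13, edgeR) in control and 5.70 (SE 0.10, adjusted p = 7.65e-13, edgeR) in LIGHT cells.

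Lipe, the hormone-sensitive lipase, had 7.5, 9.6 and 9.5 CPM in undifferentiated and 521, 732 and 741 CPM in differentiated control libraries. In LIGHT libraries it had 19.7, 17 and 14.8 CPM before and 766, 525 and 558 CPM after. The lowest differentiated control value is from the library labelled 1, as is the highest differentiated LIGHT value. The rise was 74.9-fold in control cells and 36-fold in LIGHT cells.

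Mgll, which completes the cascade, was the least abundant of its 3 lipases. Its levels were 1.73, 1.12 and 1.22 CPM in undifferentiated control and 15.7, 10.7 and 13.1 CPM in differentiated control libraries, a rise of 9.63-fold. In LIGHT cells it went from 2.3, 2.98 and 1.72 to 12, 14.1 and 16.8 CPM, a rise of 6.1-fold.

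Pnpla3 was at or under the floor of 3 counts before differentiation, with 1, 1 and 0 counts in the control and 0, 2 and 0 in the LIGHT libraries. After it, counts were 32, 107 and 173 in control and 154, 37 and 29 in LIGHT libraries. Over the summed counts, scaled to library size, the ratio was 160 in control cells (exact 95% counting interval 43.8 to 1323) and 117 in LIGHT cells (32 to 972). These intervals cover counting error only. Without the 2 libraries the ratios were 209 (57.3 to 1733) and 51 (13.6 to 430).

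The activator and the inhibitor of adipose triglyceride lipase moved by very different amounts. Abhd5 had 45.1, 49.1 and 48.9 CPM in undifferentiated and 233, 281 and 277 CPM in differentiated control libraries, a log2 rise of 2.47 (SE 0.09). Its LIGHT libraries went from 52.1, 51.7 and 50.3 to 275, 238 and 244 CPM, a log2 rise of 2.30 (SE 0.09). G0s2 went from 0.981, 1.01 and 0.816 to 244, 460 and 467 CPM in control cells, a log2 rise of 8.69 (SE 0.39, adjusted p = 1.72e-09, edgeR), the largest of the 9. In LIGHT cells it went from 0.649, 0.733 and 0.429 to 473, 263 and 273 CPM, a log2 rise of 9.10 (SE 0.41, adjusted p = 2.29e-09, edgeR). In both groups of differentiated libraries the library labelled 1 stands apart from the other 2: low in control, high in LIGHT.

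Lpl, the secreted lipase, went from 185, 172 and 151 to 3295, 3233 and 3206 CPM in control cells and from 164, 176 and 162 to 3226, 2995 and 2995 CPM in LIGHT cells. The rises were 19.1-fold and 18.4-fold. Angptl4, its inhibitor, had 23.5, 20.8 and 21.7 CPM in undifferentiated and 610, 805 and 842 CPM in differentiated control libraries, a rise of 34.2-fold. Its LIGHT libraries went from 11, 12 and 12 to 863, 608 and 585 CPM, a rise of 58.7-fold. Lmf1, the maturation factor, changed least: from 28.7, 24.5 and 29.4 to 41.8, 49.3 and 45.2 CPM in control cells and from 25.1, 25.2 and 24.8 to 49.2, 37.2 and 39.4 CPM in LIGHT cells. Its log2 rise was 0.72 (SE 0.11, adjusted p = 7.68e-05, edgeR) and 0.74 (SE 0.11, adjusted p = 7.6e-05, edgeR).

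**Figure D2:**
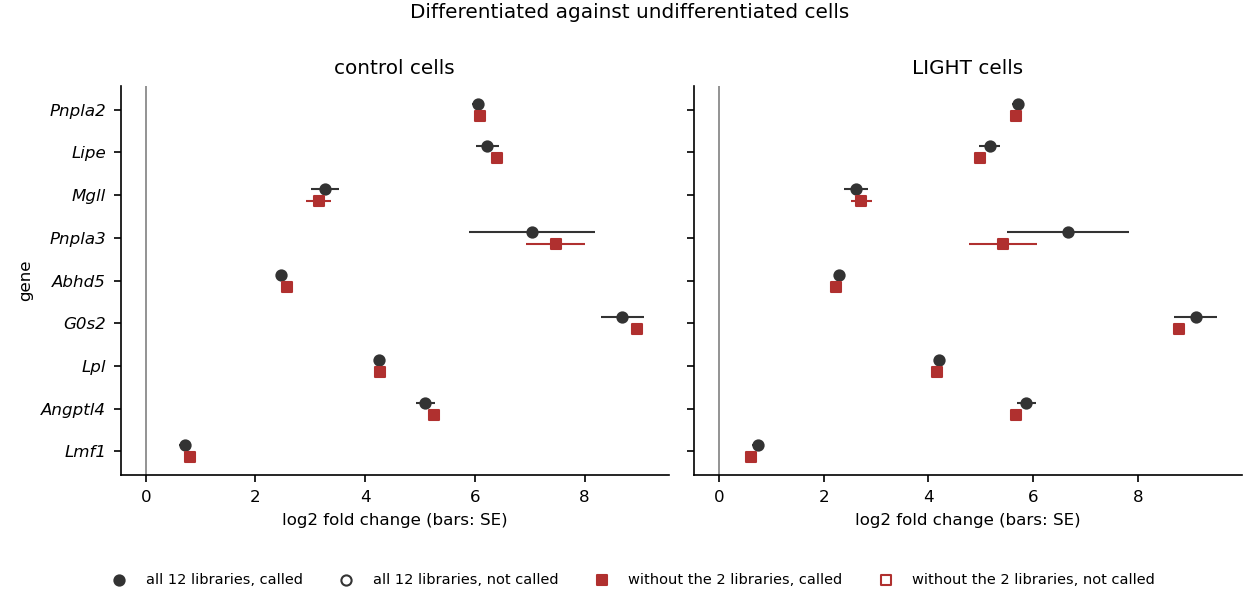
Log2 fold change of each gene between differentiated and undifferentiated cells in the control line (left) and the LIGHT line (right), with standard errors from edgeR. Circles use all 12 libraries and squares leave out the libraries labelled differentiated control 1 and differentiated LIGHT 1. All symbols are filled, since every gene was called in both fits, from 0.72 (Lmf1) to 8.69 (G0s2) in control cells with all libraries. Pnpla3 passed the low-count filter through its differentiated libraries alone, so that its rise was fixed by the filter.

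Levels were compared between genes per length, on the deposited FPKM scale (fragments scaled by transcript length and library total). Lpl was highest in all 4 groups, at 45.3 ± 4.91 (SD, n = 3) in undifferentiated control and 799 ± 29.8 FPKM in differentiated control libraries. After differentiation of control cells Pnpla2 followed at 684 ± 18.8, then G0s2 at 538 ± 169, Angptl4 at 408 ± 59.9, Lipe at 233 ± 39.2, Abhd5 at 84.3 ± 7.01, Lmf1 at 25.5 ± 1.86, Mgll at 3.78 ± 0.796 and Pnpla3 at 1.26 ± 0.763 FPKM. The order was the same in differentiated LIGHT cells. In both groups the libraries of G0s2 and Angptl4 overlapped, and without the 2 libraries no neighbours in this order did. Before differentiation the order was another. In control cells Lmf1 at 16.8 ± 1.6 and Abhd5 at 16.6 ± 0.736 FPKM came after Lpl, with overlapping libraries, ahead of Angptl4 at 13 ± 0.837, Pnpla2 at 11.2 ± 0.575, Lipe at 3.28 ± 0.447, G0s2 at 1.42 ± 0.169, Mgll at 0.423 ± 0.102 and Pnpla3 at 0.00667 ± 0.00577 FPKM. In undifferentiated LIGHT cells Abhd5 came second, and libraries overlapped between Lmf1 and Pnpla2, between Angptl4 and Lipe, and between G0s2 and Mgll.

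Each regulator was then set against its lipase within the same library, where scaling between libraries cancels. The G0s2 to Pnpla2 ratio of FPKM was 0.133, 0.144 and 0.104 in undifferentiated control libraries and 0.508, 0.963 and 0.887 after differentiation. In the LIGHT line it was 0.0613, 0.0695 and 0.0477 before and 0.906, 0.538 and 0.519 after. In both lines every differentiated library lay above every undifferentiated one, with geometric means 6-fold apart in control and 10.8-fold apart in LIGHT cells. The Abhd5 to Pnpla2 ratio was 1.4, 1.61 and 1.42 in undifferentiated and 0.113, 0.134 and 0.123 in differentiated control libraries, and 1.16, 1.14 and 1.3 against 0.12, 0.111 and 0.108 in LIGHT libraries. For this activator every differentiated library lay below every undifferentiated one.

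The Angptl4 to Lpl ratio was 0.281, 0.269 and 0.318 in undifferentiated control and 0.408, 0.553 and 0.579 in differentiated control libraries. In LIGHT libraries it was 0.147, 0.151 and 0.164 before and 0.594, 0.451 and 0.432 after, and the groups did not overlap between stages in either line. The Lmf1 to Lpl ratio was 0.355, 0.325 and 0.447 before and 0.0289, 0.0348 and 0.0322 after differentiation in control libraries, and 0.351, 0.33 and 0.348 against 0.0355, 0.0284 and 0.0301 in LIGHT libraries. The secreted lipase was nearer to the intracellular one after differentiation, with an Lpl to Pnpla2 ratio of 4.42, 4.33 and 3.39 against 1.23, 1.18 and 1.1 in control cells and 2.8, 2.97 and 3.22 against 1.08, 1.07 and 1.02 in LIGHT cells. The Lipe to Pnpla2 ratio had geometric means of 0.29 before and 0.338 after in control libraries, which overlapped, and of 0.401 and 0.299 in LIGHT libraries, which did not. The overlap in control cells came from the library labelled differentiated control 1, at 0.279: the other 2, at 0.383 and 0.362, lay above the undifferentiated libraries at 0.247 to 0.341. Across 29 comparisons of ratios the exact two-sided permutation test gave at best p = 0.1, the smallest that 3 against 3 libraries allow, or 0.153 after Benjamini-Hochberg adjustment, so no ratio could pass the threshold.

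**Figure D3:**
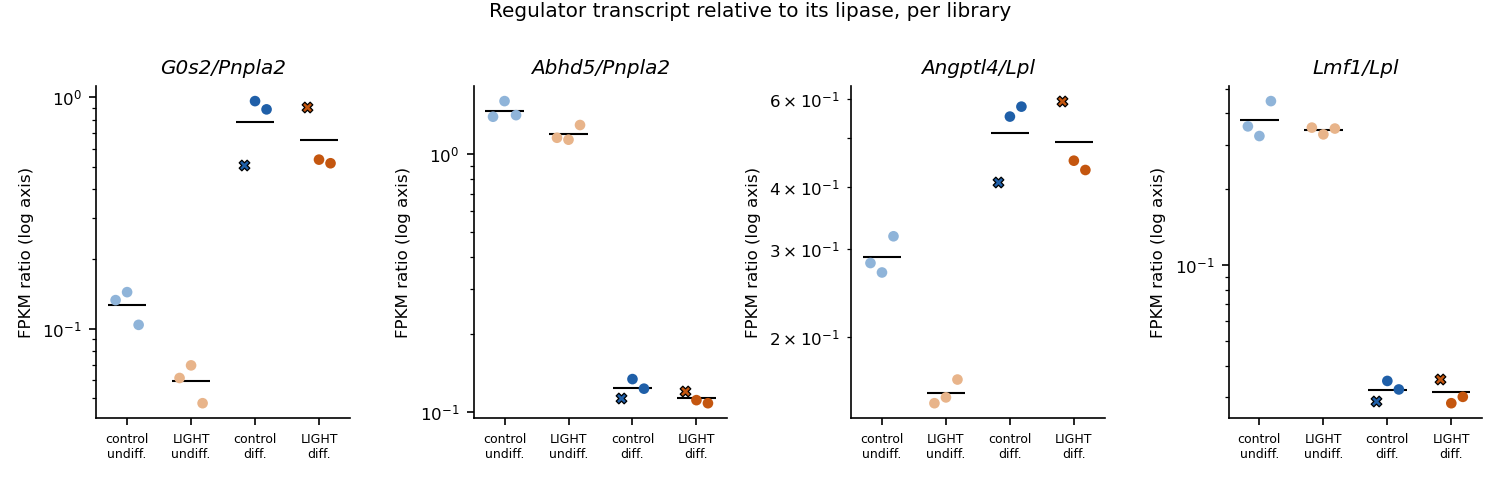
FPKM ratio of a regulator to its lipase in each of the 12 libraries, on a log axis: G0s2 and Abhd5 over Pnpla2, Angptl4 and Lmf1 over Lpl. Points are libraries, bars are arithmetic group means, and crosses are the libraries labelled differentiated control 1 and differentiated LIGHT 1. The ratios of G0s2 and Angptl4 are higher and those of Abhd5 and Lmf1 lower in differentiated than in undifferentiated libraries of the same line, and the undifferentiated LIGHT libraries are below the control ones for G0s2, Abhd5 and Angptl4.

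The lines were compared next, before differentiation. Pnpla2 and Lipe were higher and Angptl4 was lower in undifferentiated LIGHT cells, so 3 of the 9 members passed the test, where 26.5% of all genes did. Pnpla2 was 1.33-fold higher, at 35.7 ± 3.15 against 26.8 ± 1.58 CPM (SD, n = 3 each; log2 change 0.42, SE 0.08, adjusted p = 0.00377, edgeR). Lipe was 1.93-fold higher, at 17.1 ± 2.49 against 8.87 ± 1.19 CPM (log2 change 0.95, SE 0.20, adjusted p = 0.00445, edgeR). Angptl4 stood at 11.7 ± 0.591 against 22 ± 1.35 CPM, a log2 change of -0.91 (SE 0.17, adjusted p = 0.00211, edgeR). For each of these genes the 3 LIGHT libraries lay entirely on 1 side of the 3 control libraries, as they did, in either direction, for 52.3% of all genes.

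The other members did not pass. Mgll came nearest, with a log2 difference of 0.78 (SE 0.27, adjusted p = 0.0513, edgeR) and libraries that overlapped. Several alternatives, DESeq2 among them (adjusted p = 0.0354), put it past the threshold, as did leaving out the 2 differentiated libraries (adjusted p = 0.0142, edgeR). That fit called 4 members, where 44.4% of genes passed. G0s2 had a difference of -0.63 (SE 0.72, adjusted p = 0.562, edgeR) at 8 to 18 counts a library, with all LIGHT libraries below all control ones. Abhd5 differed by 0.11 (SE 0.08), Lpl by -0.02 (SE 0.08) and Lmf1 by -0.14 (SE 0.11). Beside these values, summed adipocyte markers were lower in the LIGHT libraries (24.5 to 42.2 against 47.8 to 49.7 CPM) and summed preadipocyte and fibroblast markers higher (8144 to 8913 against 4865 to 5814 CPM). Fabp4, at a mean of 17.4 against 27.5 CPM and not called, was the largest part of the adipocyte sum. Among the 8 adipocyte markers Cebpa was called higher (0.75) and Pparg lower (-0.73) on the log2 scale, and among the 6 preadipocyte and fibroblast markers Dlk1, Col1a1 and Dcn were called higher and Thy1 lower. Their part in the result was not tested. Between geometric means the Angptl4 to Lpl ratio was 0.154 in LIGHT and 0.288 in control cells, and the G0s2 to Pnpla2 ratio 0.0588 and 0.126 (exact two-sided permutation p = 0.1 for both).

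After differentiation the answer depended on the 2 libraries. With all 12, none of the 9 members differed between LIGHT and control cells, and 0% of genes passed in edgeR's quasi-likelihood test (523 had an unadjusted p under 0.05, and DESeq2 called 1 gene). The members' log2 differences lay between -0.43 (Pnpla3) and 0.12 (Mgll), and the libraries of the lines overlapped for every member, while they did not for 6.77% of all genes. Without the libraries labelled differentiated control 1 and differentiated LIGHT 1, which leaves 2 libraries in each differentiated group and an estimate of spread shared with the other groups, 6 members were lower in LIGHT cells and none was higher, where 16.4% of genes were lower and 14.6% higher. These were Pnpla3, G0s2, Angptl4, Lipe, Lmf1 and Abhd5. Scaled by library totals, an alternative chosen after seeing the data, 4 of the 9 passed, and Abhd5 and Lmf1 did not.

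G0s2 had the smallest p of the 6. Its level was 263 and 273 CPM in the remaining LIGHT and 460 and 467 CPM in the remaining control libraries (log2 difference -0.80, SE 0.06, adjusted p = 3.35e-09, edgeR). The library labelled LIGHT 1 had 473 CPM and that labelled control 1 had 244 CPM, each nearer to the remaining libraries of the other line than to those of its own. Pnpla3 had the largest difference, at 1.95 and 1.77 against 6.48 and 9.34 CPM (log2 difference -2.09, SE 0.36, adjusted p = 0.000181, edgeR), with 37, 29, 107 and 173 counts behind it. Angptl4 had 608 and 585 against 805 and 842 CPM, a log2 difference of -0.47 (SE 0.06, adjusted p = 4.75e-06, edgeR). Lipe had 525 and 558 against 732 and 741 CPM, a log2 difference of -0.45 (SE 0.07, adjusted p = 0.000134, edgeR). Lmf1 differed by -0.31 (SE 0.09, adjusted p = 0.0111, edgeR) and Abhd5 by -0.22 (SE 0.05, adjusted p = 0.00485, edgeR).

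The lipases Pnpla2 and Lpl were not called in that comparison. Pnpla2 had 1775 and 1880 against 1739 and 1866 CPM, a log2 difference of 0.01 (SE 0.07, adjusted p = 0.912, edgeR). Lpl had 2995 in both LIGHT libraries against 3233 and 3206 CPM, a log2 difference of -0.11 (SE 0.07, adjusted p = 0.27, edgeR). Mgll differed by 0.37 (SE 0.19, adjusted p = 0.15, edgeR). Set against its lipase in each library, G0s2 over Pnpla2 differed between the lines by -0.26 on the log2 scale with all libraries and by -0.81 without the 2, and Angptl4 over Lpl by -0.06 and -0.36. No test was run on these ratios without the 2 libraries. Among adipocyte markers 6 of 8 were lower in LIGHT cells and Retn was higher, with summed levels of 9118 and 9379 against 13553 and 14439 CPM. Fabp4, 1 of the 6, made up most of these sums, at a mean of 7229 against 11449 CPM. Among preadipocyte and fibroblast markers 5 of 6 were higher and Thy1 was lower, with summed levels of 7407 and 7473 against 5350 and 5626 CPM. The part of either in the members' differences was not tested.

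**Figure D4:**
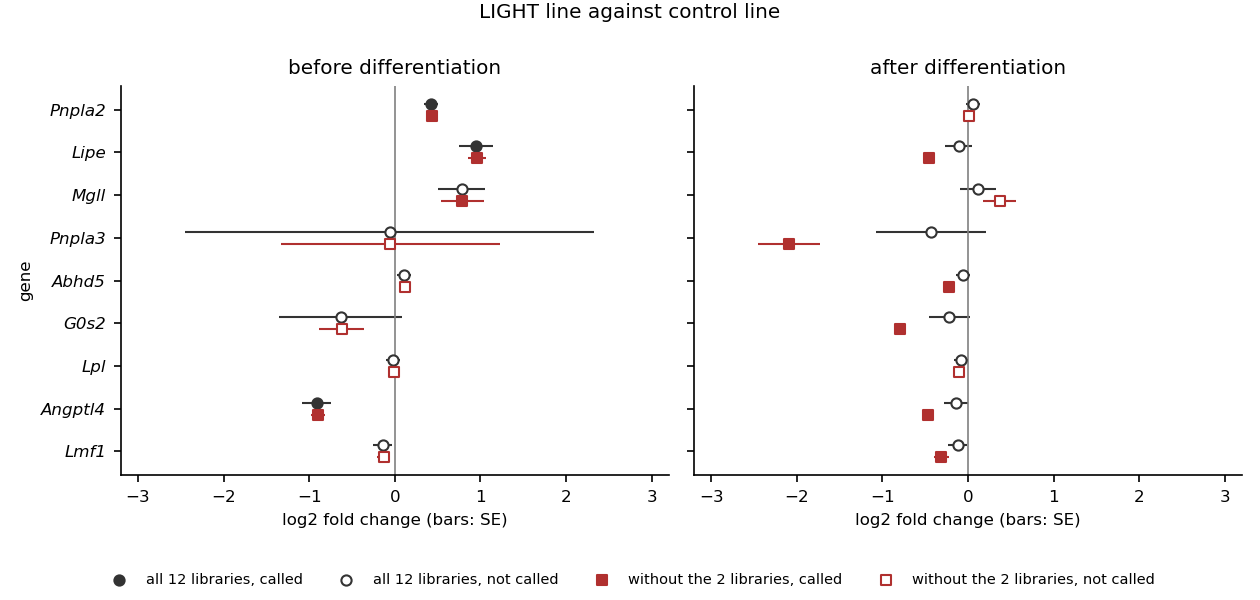
Log2 fold change of each gene between the LIGHT and the control line before (left) and after (right) differentiation, with standard errors from edgeR. Circles use all 12 libraries and squares leave out the libraries labelled differentiated control 1 and differentiated LIGHT 1; filled symbols passed at an adjusted p under 0.05. Before differentiation Pnpla2, Lipe and Angptl4 are filled in both fits, and after it filled symbols appear only in the fit without those libraries, from -2.09 (Pnpla3) to -0.22 (Abhd5).

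Whether the rise on differentiation differed between the lines was tested with the interaction term. Lipe and Angptl4 passed, 2 of the 9 members, where 9.34% of all genes did. The rise of Lipe was smaller in LIGHT cells, by -1.06 on the log2 scale (SE 0.26, adjusted p = 0.0236, edgeR), and that of Angptl4 larger, by 0.78 (SE 0.22, adjusted p = 0.0469, edgeR). Both calls were lost when single libraries were left out: that of Lipe in 7 of 12 such fits, with adjusted p-values from 0.00383 to 0.0695, and that of Angptl4 in 10 of 12, from 0.0374 to 0.112. Without the 2 libraries the interaction was -1.41 for Lipe (SE 0.13, adjusted p = 1.81e-07, edgeR) and 0.43 for Angptl4 (SE 0.09, adjusted p = 0.00185, edgeR). Pnpla2 at -0.41 (adjusted p = 0.00385, edgeR) and Abhd5 at -0.34 (adjusted p = 0.0021, edgeR) then passed as well, where 31% of genes did. The interaction of G0s2, 0.41 with all libraries, was -0.18 without the 2.

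Other genes of intracellular lipolysis were counted from a list of 33, of which 30 were tested. On differentiation 21 rose and 4 fell in control cells and 20 rose and 2 fell in LIGHT cells, with a median log2 change of 1.36 and 1.38. Among all genes 32.2% rose and 31.7% fell in control cells and 29.5% rose and 29.1% fell in LIGHT cells. Aqp7, Adrb3, Hcar1, Hcar2, Adora1 and Ces1d had 0 to 6 counts in each undifferentiated library and passed the low-count filter through their differentiated libraries, so that their rise was fixed by the filter and the counts and medians are given as a description. In control cells the highest fitted rises were those of the receptors Hcar2 and Hcar1, which restrain lipolysis when they bind a ketone body or lactate, respectively. Hcar2 went from 2 to 1490 summed counts, a ratio of 762 after scaling to library size (exact 95% counting interval 211 to 6297). Hcar1 went from 2 to 1231, a ratio of 629 (174 to 5204). Both intervals hold the folds of Cidec (471) and Plin1 (463) in the same cells, so the order among these genes is not established. In LIGHT cells the highest fitted rises were those of the lipid droplet coat protein Plin1, with a log2 rise of 9.79 (SE 0.24), and of Cidec, a droplet fusion factor, with 9.51 (SE 0.43). Npr1, a natriuretic peptide receptor, fell in both lines, by 1.12 and 0.91 on the log2 scale. The deacetylase gene Sirt1 fell by 0.92 in control cells. The protein kinase A subunit gene Prkar1a fell in both lines, with log2 changes of -0.31 in control and -0.28 in LIGHT cells.

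Before differentiation 3 of these 30 genes were higher and 2 lower in LIGHT cells, where 26.5% of all genes passed. Pde3b, the phosphodiesterase through which insulin lowers cAMP, was 1.75-fold higher (log2 change 0.80, SE 0.07, adjusted p = 1.5e-05, edgeR), and Prkaca, a catalytic subunit of protein kinase A, 1.28-fold higher. Sirt1 was lower, with a log2 change of -0.52, and so was the regulatory subunit gene Prkar2b, with -0.42. After differentiation none passed with all libraries. Without the 2 libraries 2 were higher and 11 lower of 31 tested, where 14.6% of all genes were higher and 16.4% lower. Ces1d (0.82) and Ces1f (0.36), carboxylesterase genes, were the higher ones, and Hcar2 (-1.01) and the phosphodiesterase gene Pde4d (-0.84) had the largest differences downward on the log2 scale. For the interaction with all 12 libraries Pde3b was the 1 gene of the list that passed (-0.89, SE 0.10, adjusted p = 0.000307, edgeR), where 9.34% of all genes did. Without the 2 libraries 2 were higher and 7 lower of 31, Pde3b among the lower (-0.84), where 31% of genes passed in either direction. With all 12 libraries Plin5 and Adrb1 were among those that did not pass the low-count filter.

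Other genes of lipoprotein lipase control numbered 25 in the list, of which 17 were tested. In control cells 10 rose and 5 fell on differentiation, and in LIGHT cells 9 rose and 6 fell, with a median log2 change of 0.40 and 0.27. The shares over all genes were 32.2% up and 31.7% down in control cells, and 29.5% and 29.1% in LIGHT cells. Apoc1, Apoc2 and Apoc3 had 0 to 7 counts in each undifferentiated library and passed the filter through their differentiated libraries, so that their rise was fixed by it. The fatty acid transporter gene Cd36 rose by 8.88 (SE 0.27) and 9.04 (SE 0.27) on the log2 scale. Apoc3, which encodes an apolipoprotein that inhibits the lipase, went from 0 to 54 summed counts in control and from 0 to 65 in LIGHT cells. Scaled to library size, these were at least 18.4-fold and 23-fold higher against the floor of 3 counts over the group. Lipg, the endothelial lipase gene, fell by 1.93 and 2.65 on the log2 scale. It had 24 to 37 counts in undifferentiated and 2 to 9 in differentiated libraries. Lipg passed the filter through the undifferentiated libraries alone, so that its fall was fixed by the filter. The heparan sulfate proteoglycan gene Sdc1 fell by 0.79 and 0.71. Gpihbp1, whose product carries the lipase to the capillary wall, had at most 4 counts in any library.

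Between the lines before differentiation Vldlr (0.49), a lipoprotein receptor gene, and the convertase gene Furin (0.37) were higher in LIGHT cells on the log2 scale. Sort1 (-0.65), a sorting receptor gene, and Sdc4 (-0.28) were lower. These were 2 higher and 2 lower of 17 tested, where 26.5% of all genes passed. After differentiation none of the 17 passed with all libraries, and without the 2 libraries 2 were higher and 5 lower of 18, beside the same 14.6% and 16.4% of all genes. Angptl8 (2.27, SE 0.82) and Lmf2 (0.26) were higher and Apoc1 (-1.05) and Apoe (-0.57) had the largest differences downward. Angptl8 had at most 27 counts in any library and passed the filter in that fit alone, through the differentiated LIGHT libraries where it is high, so that its call was fixed by the filter. For the interaction Vldlr was the 1 gene of the list that passed with all libraries (-0.70, SE 0.16, adjusted p = 0.0202, edgeR), where 9.34% of all genes did. Without the 2 libraries 2 were higher and 4 lower of 18, where 31% of genes passed in either direction.

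Of the PNPLA family beside Pnpla2 and Pnpla3, Pnpla6, Pnpla7 and Pnpla8 were tested. Pnpla8, a calcium-independent phospholipase, rose by 1.99 (SE 0.11) in control and 1.51 (SE 0.11) in LIGHT cells on the log2 scale. Pnpla7 was lower in LIGHT cells before differentiation, by -0.46 (SE 0.11, adjusted p = 0.0104, edgeR), and rose by 0.44 on their differentiation. Pnpla1 and Pnpla5 had at most 3 and 2 counts in any library.

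The genes with the pattern most like each member were found as the smallest root mean square difference in centred log2 CPM over the 12 libraries, among 10290 genes whose mean reached 5 CPM. For Pnpla2 it was Acsl1, an acyl-CoA synthetase gene, at 0.136, where the median gene was at 2.95. For Lipe it was Aldh1a7 at 0.175 (median 2.88), and for Lpl it was Dgat2, which encodes an enzyme of triglyceride synthesis, at 0.147 (median 2.13). G0s2 was closest to Fabp4, the fatty acid binding protein gene of fat cells, at 0.213 (median 4.36), with Cfd next at 0.247. Angptl4 was closest to Hsd11b1, which encodes an enzyme that regenerates active glucocorticoid, at 0.243 (median 2.77), Abhd5 to Etv3 at 0.0615 (median 1.22), Mgll to Mgst1 at 0.201 (median 1.5) and Lmf1 to Mrpl53 at 0.0697 (median 0.464). Pnpla3 had the least close neighbour, Olfm2 at 0.47 (median 2.55). The 12 libraries share line and stage within their groups, so they are not 12 independent points.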

How the data were processed

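For each library the authors deposited a table of expected counts and FPKM by gene, as the column names show per the file headers. Because expected counts are estimated, only 83.6% to 84.5% of a library's deposited values were whole. FPKM, as deposited by the authors, are scaled by length and library total. RNA was extracted with TRIzol and libraries made by Illumina protocols, per the labels' protocols. Per the submitters' processing notes, reads were placed on mm8. Which aligner and counter were used, and whether strand was read, was not given in the sources used here, so overlapping genes cannot be told apart. A gene missing from a library's table was read as 0.

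Rounded counts were fitted with 1 coefficient per group in edgeR 4.0.16 under R 4.3.3, after TMM scaling and a low-count filter (filterByExpr, minimum count 10), and tested by quasi-likelihood. All 12 libraries shared 1 fit, and p-values were adjusted over the 12993 genes tested at a threshold of 0.05. Each standard error is the size of the log2 change over the root of its F value. Folds against 1 to 3 counts are ratios of summed counts with exact 95% intervals, and folds against 0 use a floor of 3 counts over the group. In both, each sum was divided by the summed TMM-scaled library sizes of its group. The fit was also run on simulated counts in which only the differentiated control group held changes. Calls were read there for differentiation of control cells and between undifferentiated lines only. That run does not bear on the interaction, the differentiated lines or the fits without the 2 libraries. Alternatives were DESeq2 1.42.0, limma 3.58.1 on log2(FPKM + 1), scaling by RLE or by library totals, a low-count minimum of 50 or none, 2-group fits, a replicate block, and fits without single libraries or the 2 libraries.

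The named genes are the 9 members, the called genes of each pathway list with the 2 largest rises and falls per contrast, the genes most alike in pattern and Tnfsf14. Some genes of the lists are not reported here. The members and lists were chosen with earlier results of these data known. Promoter windows are from RefSeq, build GRCm38.p6, which is not the build of the counts.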

Additional observations from a re-analysis of the deposited data

Results flagged for a closer look

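With all libraries the change on differentiation passed the test of a difference between the lines for 2 members, by the interaction term of edgeR's quasi-likelihood test. For Lipe the rise in LIGHT cells was 5.17 and in control cells 6.23 on the log2 scale, a difference of -1.06 (adjusted p = 0.0236, edgeR). For Angptl4 the rise in LIGHT cells was 5.87 and in control cells 5.10, a difference of 0.78 (adjusted p = 0.0469, edgeR). In both genes the differentiated groups overlapped with all libraries and the undifferentiated groups did not. The 2 libraries whose Tnfsf14 goes against their labels enter both values, and their part was tested only by leaving them out, which gave -1.41 and 0.43. Neither call was stable: leaving out single libraries ended that of Lipe in 7 of 12 fits (adjusted p from 0.00383 to 0.0695, edgeR) and that of Angptl4 in 10 of 12 (0.0374 to 0.112). With the replicate block the adjusted p was 0.0602 and 0.1 (edgeR), and with RLE scaling that of Angptl4 was 0.0515.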

How the results depend on the processing

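The rise of Pnpla3 was fixed by the low-count filter and is counted here all the same. The 9 rises in each line kept their direction and their side of the threshold under all alternatives run, including every fit that left out 1 library. The calls of Pnpla2, Lipe and Angptl4 between undifferentiated lines did so too, with adjusted p-values from edgeR of at most 0.0235, 0.0248 and 0.0119 when 1 library was left out.

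Without the 2 libraries the genes called over all tested numbered 5836 between undifferentiated lines, 4079 between differentiated lines and 4077 for the interaction, and the members called were 6 between differentiated lines and 4 for the interaction. With library totals in addition these were 5853, 4341, 4240, 4 and 4, and the share of higher calls went from 47.1% to 66% between differentiated lines, from 48.2% to 65.4% for the interaction and from 50.6% to 40.1% on differentiation of control cells. Library totals moved the median log2 change of all genes in that last comparison to -0.113 with all libraries and -0.147 without the 2. A fit of the 2 undifferentiated groups alone called 5601 genes, where the fit of all groups called 3446. DESeq2 called 1 gene between differentiated lines. RLE scaling left 1 member called for the interaction.

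The interaction of G0s2 turned to -0.18 without the 2 libraries and -0.08 with library totals in addition, and that of Lmf1 to -0.18 and -0.08. The cause of these changes was not tested. Of 254 differences in log2 ratio recomputed, 249 moved by less than the spread between replicates and 9 changed sign; the 5 that moved by more were between differentiated lines without the 2 libraries.

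With 1 library left out, genes called ranged from 2238 (without undifferentiated LIGHT 2) to 4280 between undifferentiated lines and from 675 (without undifferentiated LIGHT 2) to 1868 (without differentiated control 1) for the interaction, and members called for the interaction from 0 to 2. Log2 differences that changed sign ranged, between undifferentiated lines, from -2.65 to 0.46 for Pnpla3 and -0.09 to 0.05 for Lpl, between differentiated lines from -1.68 to 0.06 for Pnpla3 and -0.01 to 0.26 for Mgll, and for the interaction from -1.63 to 2.22 for Pnpla3, -0.13 to 0.02 for Lpl and -0.12 to 0.10 for Lmf1. None of these was called.

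Whether replicate numbers pair the libraries was not settled. None of 18 same-numbered pairs had deviations correlated over 0.1 (-0.618 to 0.097), and 6 of 12 libraries correlated best with their own number. Those 6 were the undifferentiated libraries. Same-numbered pairs of 1 line across stages were all weakly positive, at 0.036 to 0.097. The lowest value, -0.618, was between the 2 libraries whose Tnfsf14 goes against their labels. With the replicate block, 747 genes and 0 members passed for the interaction, with Lipe at an adjusted p of 0.0602 and Angptl4 at 0.1 (edgeR). The block changed no other count of members.

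At 0 to 2 counts before differentiation, differences of Pnpla3 between the undifferentiated lines were not detectable at this depth.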
